A study of Capra hircus with 9 samples.

Results

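The genes described here encode the standard subunits of the proteasome, chosen by name from a gene table of goat uterus. A gene was a member when its symbol began with PSMA, PSMB, PSMC or PSMD followed by a number, with the immunoproteasome genes PSMB8, PSMB9 and PSMB10 left out. The rule used no measured value and found 35 of the 25671 gene rows. They comprise 7 subunits of the alpha ring, 7 of the beta ring, 5 ATPases, 11 other subunits of the base and lid, and 3 assembly chaperones. The last 2 are PSMA8 and PSMB11, variants known in other mammals from testis and thymus. PSMC3, another ATPase, stands in the table under a locus identifier and so lies outside the rule.

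The samples were uterine RNA of Liaoning Cashmere goats (Capra hircus) from days 6, 16 and 19 around implantation, with 3 libraries a day. The labels name no treatment or genotype and give no starting event for the count of days. They conflict on what a day is: the time point field ties it to implantation, which is followed here, whereas the design text words it as an age. They also do not state whether each library is a different animal, so the tests measure how far these libraries spread, a part of which may be technical. The labels disagree on the tissue, which is uterus in one field, endometrial epithelium in the title and testis in the treatment protocol.

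The proteasome is the main protease of the cytosol and nucleus. A barrel-shaped core is built from outer alpha rings, which gate the entrance, and inner beta rings, which carry the catalytic sites. A regulatory cap sits on the end of the core. Its lid and base recognise proteins tagged with ubiquitin and remove the tag, and its ring of ATPases unfolds them and threads them into the core. Some base subunits are first held by dedicated chaperones. In cells exposed to interferon, the standard catalytic subunits PSMB5, PSMB6 and PSMB7 can be replaced by PSMB8, PSMB9 and PSMB10. The uterus around implantation is a tissue of heavy secretion and remodelling, and in ruminants the conceptus releases an interferon at that time.

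Library totals lay between 8712751 and 11074693 counts. One library stood apart from its group: in day 19 replicate 1 ribosomal protein genes held 2.42% of counts, against 6.61% and 5.64% in replicates 2 and 3 and 3.64% to 4.34% on days 6 and 16. Mitochondrial-genome rows held 0.639% in that library, 1.54% and 1.34% in the other day 19 libraries, and 1.94% to 3.27% on the earlier days. Each day 19 library is therefore given on its own, and the main day 19 counts, medians and called fold changes are also given for the fit without replicate 1. Markers of several uterine cell types were present: stromal collagen and proteoglycan genes summed to 15760 CPM or more in every library and smooth muscle genes to 7907 CPM or more. The 4 of 6 listed epithelial markers in the table summed to between 461 and 1036 CPM. Of 8 testis germ cell genes, 6 were in the table, SYCP3, TNP1 and ODF1 had 0 counts, and the sum did not pass 2.25 CPM in any library. CPM is the count of a gene scaled to a common library total, after normalisation by the trimmed mean of M-values.

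Of the 35 genes, 33 passed the filter on low counts, among 16098 genes that did. PSMA8 and PSMB11 did not pass. PSMA8 had 6, 6 and 4 counts on day 6, 3, 5 and 2 on day 16 and 2, 1 and 2 on day 19. PSMB11 had 0, 2 and 0 counts on day 6, 0, 2 and 1 on day 16 and 1, 2 and 1 on day 19. Both were near the limit of detection in every library, and neither is compared between days.

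The 35 genes together held 0.309%, 0.291% and 0.295% of all counts on day 6, and 0.320%, 0.288% and 0.282% on day 16. On day 19 they held 0.329% in replicate 1, 0.490% in replicate 2 and 0.460% in replicate 3. The shares of days 6 and 16 overlapped, and every day 19 library lay above all of them, replicate 1 by little. With ribosomal protein and mitochondrial rows left out of the total, day 19 replicate 1 held 0.340% and the highest day 16 library 0.339%. The median over genes had the same order, but single members did not all follow it. Day 19 replicate 1 lay above every day 16 library for 17 of 33 members, within their range for 15 and below it for 1. Relative to the day 6 mean of each gene, the median of the 33 genes was 1.12, 0.953 and 0.873 in the day 16 libraries, and 1.15, 1.82 and 1.67 in the day 19 libraries. Over all 16098 genes tested this median lay between 0.995 and 1.01 in every library. These are bulk samples, in which fewer cells of a type and less RNA per cell cannot be told apart.

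**Figure D1:**
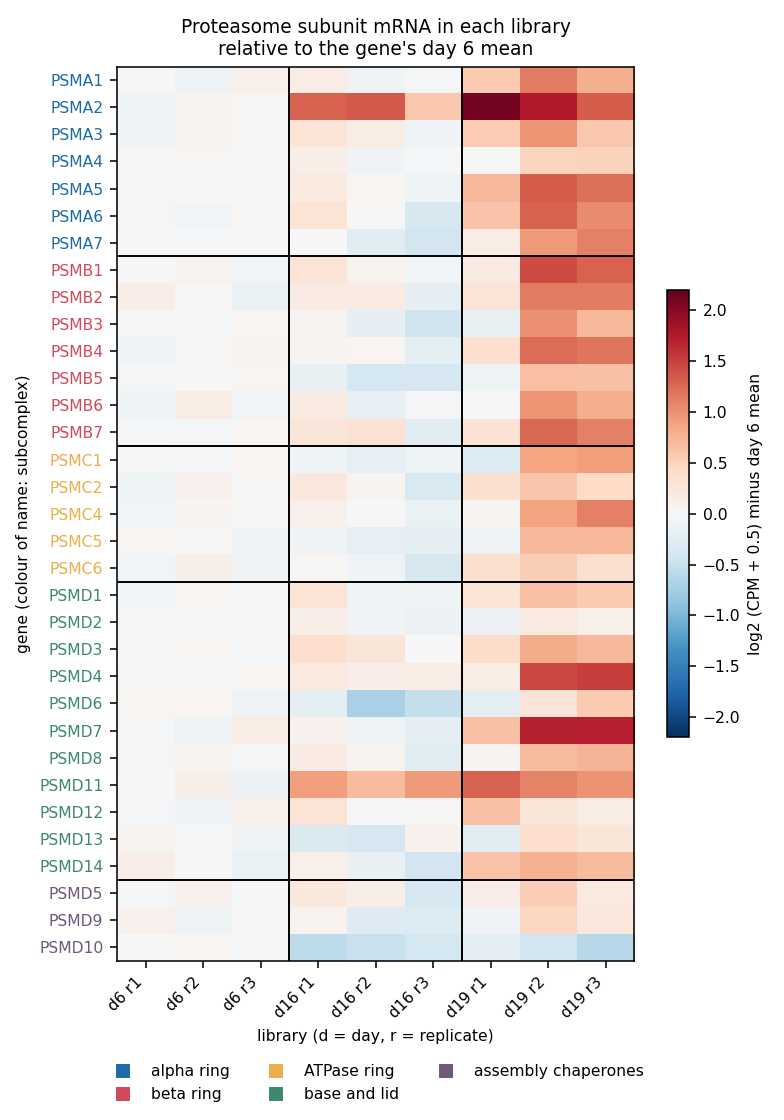
Level of 33 proteasome genes in each of the 9 libraries, as log2 (CPM + 0.5) minus the gene's mean over the day 6 libraries. Rows are genes grouped by subcomplex, columns are libraries from day 6 to day 19, and colour gives the difference. Day 16 is pale apart from PSMA2 and PSMD11, and most rows turn red in day 19 replicates 2 and 3 but less so in replicate 1, where the median is 1.15 times the day 6 level.

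On day 16 the members' mRNA centred near its day 6 level, and 2 members were higher. The day 16 library medians were 1.12, 0.953 and 0.873 relative to day 6, and small differences were not detectable. PSMA2, an alpha ring subunit, and PSMD11, a scaffold subunit of the lid, rose in day 16 libraries relative to day 6. In edgeR's quasi-likelihood test, a gene was called at a p under 0.05 after Benjamini-Hochberg adjustment across the 16098 genes, and by it these 2 of 33 were higher and 0 were lower. Of all genes tested, 5.12% were called higher and 3.74% lower, so the members' share was near the background. At an unadjusted p under 0.05, 2 members were higher and 1 was lower, and DESeq2 likewise called 2 higher and 0 lower. Among all genes 3403 had such a p in either direction and DESeq2 called 2274. The median log2 fold change of the 33 was 0.00, the same as over all genes.

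PSMA2 had 156, 162 and 95.9 CPM in day 16 libraries, against 58.9, 66.5 and 64.5 CPM in day 6 libraries. All 3 day 16 libraries lay above all 3 day 6 libraries, and day 16 replicate 3 was the lowest of its day. The log2 fold change was 1.12 (SE 0.26), a 2.18-fold difference, with an edgeR adjusted p of 0.0246. That p ranged from 0.00107 to 0.0996 over the alternative settings. The call was lost without any 1 of the 3 day 6 libraries (adjusted p 0.0981, 0.0816 and 0.0972) and without day 16 replicate 1 (0.0944) or 2 (0.0996).

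PSMD11 had 102, 87.5 and 103 CPM in day 16 libraries, against 53.5, 58.7 and 49.3 CPM in day 6 libraries. Here the groups were well separated and tight. The log2 fold change was 0.86 (SE 0.16), a 1.81-fold difference, with an edgeR adjusted p of 0.0098, which ranged from 1.09e-05 to 0.0658 over the alternatives. The call was lost only without day 6 replicate 3 (adjusted p 0.0658).

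The other 31 members had log2 fold changes between -0.49 and 0.22 in this comparison, and none passed. Across all 33, the day 16 libraries lay above every day 6 library for 3 members (PSMA2, PSMD4 and PSMD11), where 19.9% of all genes did so. They lay below every day 6 library for 5 members (PSMB5, PSMC1, PSMC5, PSMD6 and PSMD10), where 18.8% of all genes did so. Both counts are near or under the background.

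Within each subcomplex, the members at the low end of day 16 against day 6 were PSMA7, PSMB5, PSMC5, PSMD6 and PSMD10. PSMD6, a lid scaffold subunit, had 40.2, 28.1 and 32.1 CPM in day 16 libraries, against 47.4, 47.6 and 44.0 CPM in day 6 libraries. Its log2 fold change was -0.47 (SE 0.22), with an edgeR adjusted p of 0.278. PSMD10, a chaperone that holds an ATPase subunit during assembly and is also known as gankyrin, had 16.0, 17.0 and 18.5 CPM in day 16 libraries, against 24.1, 25 and 23.4 CPM in day 6 libraries. Its groups did not overlap, yet the log2 fold change of -0.49 (SE 0.18) did not pass in the fit to all 9 libraries (edgeR adjusted p 0.143). Without day 19 replicate 1 the value was -0.50 (SE 0.13) and passed at an edgeR adjusted p of 0.0283, the lowest over the alternatives apart from 0.019 with limma voom, and the highest was 0.352. In that fit PSMD10 was the only member called lower, where 9.67% of all genes were called lower, while PSMA2 and PSMD11 were again the 2 called higher, where 10.7% of all genes were.

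On day 19 members of the alpha ring, the beta ring and the base and lid rose relative to day 6, by 1.57-fold to 3.41-fold with all libraries and 1.69-fold to 3.27-fold without day 19 replicate 1. With edgeR, 15 members were called higher in day 19 than in day 6 libraries, which is 45.5% of those tested, where 12.7% of all genes were called higher. None was called lower, where 10.2% of all genes were. At an unadjusted p under 0.05, 21 were higher and 1 was lower, and DESeq2 called 17 higher and 0 lower. Of the 16098 genes, 6138 had such a p in either direction and DESeq2 called 4932. The 15 were PSMA1, PSMA2, PSMA3, PSMA5, PSMA6 and PSMA7 of the alpha ring, PSMB1, PSMB2, PSMB4 and PSMB7 of the beta ring, and PSMD3, PSMD4, PSMD7, PSMD11 and PSMD14 of the base and lid. No ATPase or chaperone was among them.

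The median log2 fold change in this comparison was 0.64 for the members and 0.02 for all genes, and 0.81 and 0.00 without day 19 replicate 1. It was positive for 32 of 33 members, and for 30 when libraries were scaled by their totals alone. For 22 members all 3 day 19 libraries lay above every day 6 library, where 19.6% of all genes did so. Across the 3 days, 15 members differed in edgeR's F test, where 19.6% of all genes did, and 30 without day 19 replicate 1, where 59.1% of all genes did.

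These counts depended on single libraries. Leaving out day 6 replicate 1, 2 or 3 gave 6 calls each in day 19 against day 6, and leaving out day 19 replicate 2 or 3 gave 6 and 7. The calls among all genes fell in the same fits, from 3684 to between 1928 and 2527, so the loss was not confined to the members. Leaving out 1 day 16 library gave 14 calls in each case. Without day 19 replicate 1, 27 members were called higher and 1, PSMD10, lower, where 27.2% of all genes were called higher and 27% lower. The 15 were all among those 27. Called with each of the 9 libraries left out in turn were 6 members: PSMA1, PSMA2, PSMA5, PSMA6, PSMD7 and PSMD11.

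**Figure D2:**
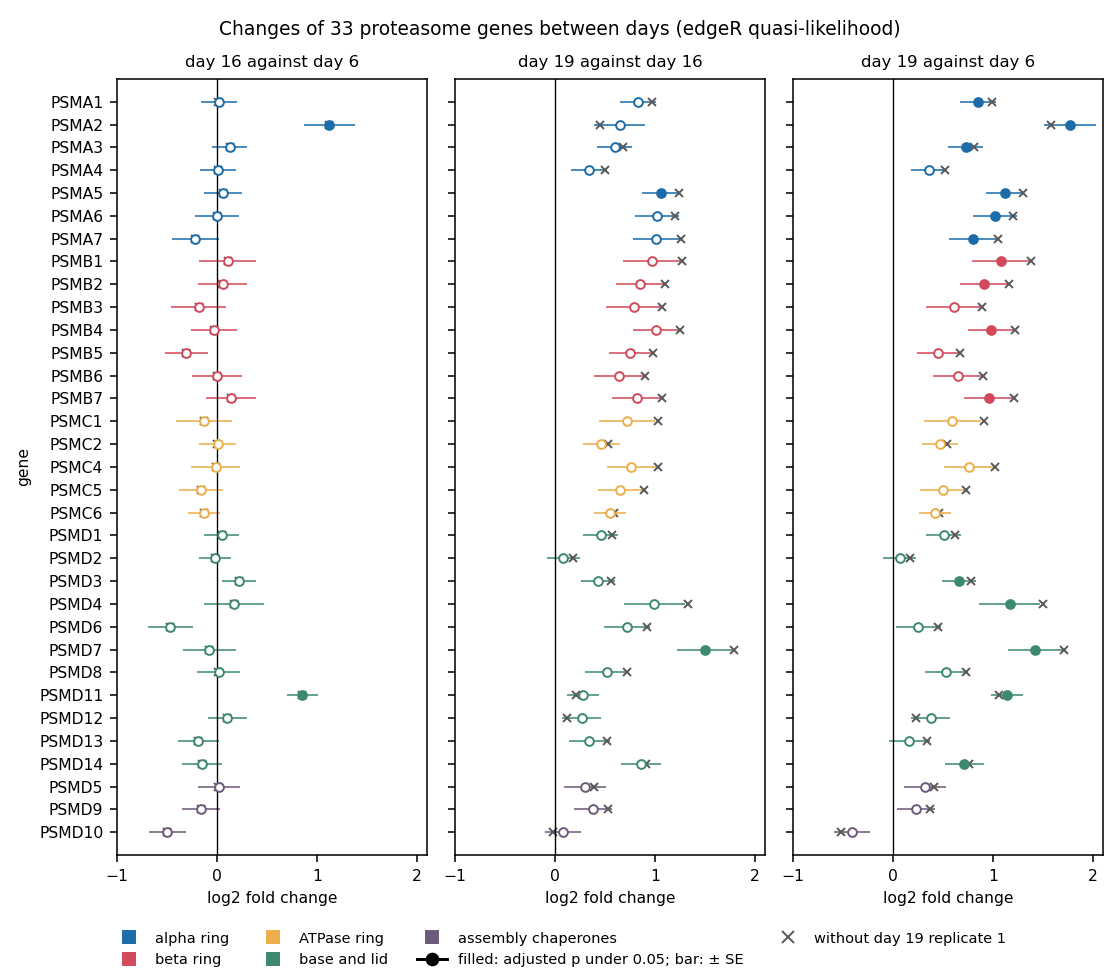
Log2 fold change of each of 33 proteasome genes for day 16 against day 6, day 19 against day 16 and day 19 against day 6. Points are edgeR estimates from all 9 libraries with bars of 1 SE, filled where the adjusted p was under 0.05, and crosses are the estimates without day 19 replicate 1. Filled points number 2, 2 and 15 in the 3 panels, and most crosses lie to the right of their points in the panels with day 19.

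Against day 16, the day 19 estimates were as large as against day 6 but far fewer passed. The median log2 fold change of the members was 0.65, against 0.01 for all genes. It was positive for 33 of 33 members, and for 31 with scaling by totals alone. With edgeR, 2 members were called higher, PSMA5 and PSMD7, where 0.516% of all genes were called higher, and 0 were called lower, where 0.683% of all genes were. At an unadjusted p under 0.05, 25 members were higher and 0 lower, and DESeq2 called 16 higher and 0 lower. In both directions together, 3946 of the 16098 genes had such a p and DESeq2 called 1756. Without day 19 replicate 1, edgeR called 27 members higher, where 21.6% of all genes were, and 0 lower, where 23.1% of all genes were. The median was then 0.90 for the members and -0.01 for all genes. Leaving out any 1 of the other 8 libraries gave 0 calls among the members. These fits called between 0 and 16 genes among all genes, so the 0 is not particular to the members. The comparisons with day 16 and with day 6 share their day 19 libraries and are not independent of each other.

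In the alpha ring 6 of 7 members were called higher in day 19 against day 6, where 12.7% of all genes were. The median log2 fold change was 0.85. All 7 were called without day 19 replicate 1, with a median of 1.05, where 27.2% of all genes were called higher. PSMA2 had 58.9, 66.5 and 64.5 CPM on day 6, 156, 162 and 95.9 CPM on day 16 and 274, 214 and 159.5 CPM on day 19. Its level in day 19 libraries overlapped that of day 16 and lay above that of day 6. Against day 6 the log2 fold change was 1.77 (SE 0.26), a 3.41-fold difference with an edgeR adjusted p of 0.00172, and 1.57 (SE 0.22) without day 19 replicate 1. Unlike most members, PSMA2 was highest in day 19 replicate 1.

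PSMA5 had 56.3, 55.8 and 53.7 CPM on day 6, 64.3, 56.8 and 51.7 CPM on day 16 and 90.7, 141 and 128 CPM on day 19. All day 19 libraries, replicate 1 included, lay above every earlier library. The log2 fold change was 1.06 (SE 0.19) against day 16, with an edgeR adjusted p of 0.0452, and 1.12 (SE 0.19) against day 6, with an edgeR adjusted p of 0.0036. Without replicate 1 these values were 1.24 and 1.29 (SE 0.12 each). The p against day 16 ranged from 8.81e-05, without day 19 replicate 1, to 0.177, without day 16 replicate 3. It passed the threshold in no other fit that left out 1 library.

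PSMA6 had 59.8, 56.4 and 59.5 CPM on day 6, 72.0, 58.0 and 45.8 CPM on day 16 and 90.2, 145 and 120.5 CPM on day 19. PSMA1 had 58.1, 53.5 and 62.8 CPM on day 6, 65.2, 55.1 and 56.2 CPM on day 16 and 86.6, 127 and 101 CPM on day 19. For both, the day 19 libraries lay above all 6 earlier ones. Against day 6 they rose 2.03-fold and 1.80-fold, with edgeR adjusted p of 0.011 and 0.00973, and 2.29-fold and 1.98-fold without day 19 replicate 1. Against day 16 the edgeR adjusted p of both, 0.058 and 0.0573, was just over the threshold, and DESeq2 called both.

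PSMA3 had 53.8, 59.4 and 57.9 CPM on day 6, 69.9, 64.0 and 53.2 CPM on day 16 and 84.4, 112 and 86.2 CPM on day 19. PSMA7 had 80.4, 77.9 and 81.0 CPM on day 6, 79.2, 67.0 and 60.0 CPM on day 16 and 89.8, 154 and 173 CPM on day 19. In PSMA7 replicate 1 of day 19 was close to day 6 and the other day 19 libraries were well above it. Against day 6, PSMA3 rose 1.65-fold (edgeR adjusted p 0.0174) and PSMA7 rose 1.74-fold (edgeR adjusted p 0.0384). Without replicate 1 the folds were 1.75 and 2.06. With 1 library left out in turn, PSMA3 was called in 5 of 9 fits (highest edgeR adjusted p 0.0714). PSMA7 was called in 1 of 9, the fit without day 19 replicate 1 (highest edgeR adjusted p 0.126). PSMA4, the alpha subunit that was not called and is named here after its values were seen, had a log2 fold change of 0.35 (SE 0.18, edgeR adjusted p 0.176), and 0.52 (SE 0.11) without replicate 1, which passed.

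The beta ring carries the catalytic sites. In day 19 against day 6, 4 of its 7 members were called higher, where 12.7% of all genes were. The median log2 fold change was 0.91. All 7 passed without day 19 replicate 1, with a median of 1.15, where 27.2% of all genes were called higher. Of the 3 catalytic subunits, PSMB7 rose, and PSMB5 and PSMB6 did not pass with all 9 libraries. PSMB7, the trypsin-like subunit, had 79.5, 79.9 and 83.7 CPM on day 6, 97.4, 101 and 69.2 CPM on day 16 and 101, 196 and 175 CPM on day 19. Day 19 replicate 1 lay within the day 16 range. Against day 6 the log2 fold change of PSMB7 was 0.96 (SE 0.25), with an edgeR adjusted p of 0.0245, and 1.21 (SE 0.16) without replicate 1.

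PSMB5, the chymotrypsin-like subunit, had 89.0, 90.8 and 94.7 CPM on day 6, 81.3, 70.2 and 70.6 CPM on day 16 and 85.1, 145 and 144 CPM on day 19. It was below its day 6 level in all 3 day 16 libraries and again in day 19 replicate 1. Against day 6 its log2 fold change on day 19 was 0.45 (SE 0.21, edgeR adjusted p 0.152), and 0.67 (SE 0.11) without replicate 1, which passed. PSMB6, the caspase-like subunit, had 112, 135 and 115 CPM on day 6, 137, 106 and 119 CPM on day 16 and 119, 236 and 209 CPM on day 19. Replicate 1 of day 19 again fell inside the earlier range. The log2 fold change of PSMB6 against day 6 was 0.64 (SE 0.25, edgeR adjusted p 0.09), and 0.90 (SE 0.14) without replicate 1, which passed.

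PSMB4 and PSMB1 are beta subunits without a catalytic site. PSMB4 had 115, 124 and 127 CPM on day 6, 127, 125 and 105 CPM on day 16 and 157, 287 and 275 CPM on day 19. Its day 19 libraries lay above all earlier ones, and the 1.97-fold rise against day 6 had an edgeR adjusted p of 0.0159 and was 2.33-fold without replicate 1. PSMB1 had 122, 128 and 117 CPM on day 6, 150.0, 129 and 117 CPM on day 16 and 141, 331 and 302 CPM on day 19. In day 19 replicate 1 its level lay inside the day 16 range, and in the other libraries of that day it was well above. Against day 6 PSMB1 rose 2.11-fold (edgeR adjusted p 0.0259), and 2.61-fold without replicate 1.

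The immunoproteasome counterparts of these 3 subunits were already higher on day 16. With edgeR, PSMB8, PSMB9 and PSMB10 all rose in day 16 relative to day 6, by log2 fold changes of 1.73, 2.03 and 1.25 (SE 0.33, 0.36 and 0.29), where PSMB5, PSMB6 and PSMB7 had -0.31, 0.00 and 0.14. The ratio of PSMB8 to PSMB5, relative to its day 6 mean, was 4.41, 5.11 and 2.66 in the day 16 libraries and 4.86, 3.78 and 3.52 in the day 19 libraries. The ratio of PSMB9 to PSMB6 was 4.08, 5.14 and 2.74 on day 16 and 6.13, 4.05 and 4.10 on day 19. The ratio of PSMB10 to PSMB7 was 1.96, 2.40 and 2.04 on day 16 and 2.59, 2.24 and 2.30 on day 19. In each pair every library of days 16 and 19 lay above every day 6 library, and days 16 and 19 overlapped in all 3 pairs. The difference between a pair's changes was not tested.

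Of the ATPase ring, 0 of 5 members were called in any comparison with all 9 libraries by edgeR, although all 5 had an unadjusted p under 0.05 in day 19 against day 16. DESeq2 called 2 of the 5 in that comparison. Of the 16098 genes tested, 3946 had such a p in either direction and DESeq2 called 1756. The median log2 fold change was 0.65 against day 16 and 0.49 against day 6. Without day 19 replicate 1, edgeR called 5 of 5 in both comparisons, with medians of 0.89 and 0.73. Of all genes, 21.6% and 27.2% were called higher in them.

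PSMC1 had 159, 157 and 166 CPM on day 6, 151, 141 and 149 CPM on day 16 and 130.0, 293 and 304 CPM on day 19. Replicate 1 of day 19 had the lowest level of the 9 libraries and replicates 2 and 3 the highest. In the reference annotation PSMC1 overlaps NRDE2, so its reads may include some of that gene. PSMC2 had 102, 116 and 108 CPM on day 6, 128, 114 and 85.6 CPM on day 16 and 139, 165 and 147 CPM on day 19. Its 3 day 19 libraries were close together and above all earlier ones. The log2 fold change of PSMC2 against day 6 was 0.47 (SE 0.18, edgeR adjusted p 0.0913), and 0.54 (SE 0.16) without replicate 1, which passed. PSMC5 had 132, 129 and 121 CPM on day 6, 121, 112 and 109.9 CPM on day 16 and 118, 209 and 211 CPM on day 19. It followed the pattern of PSMC1, with replicate 1 of day 19 below every day 6 library.

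**Figure D3:**
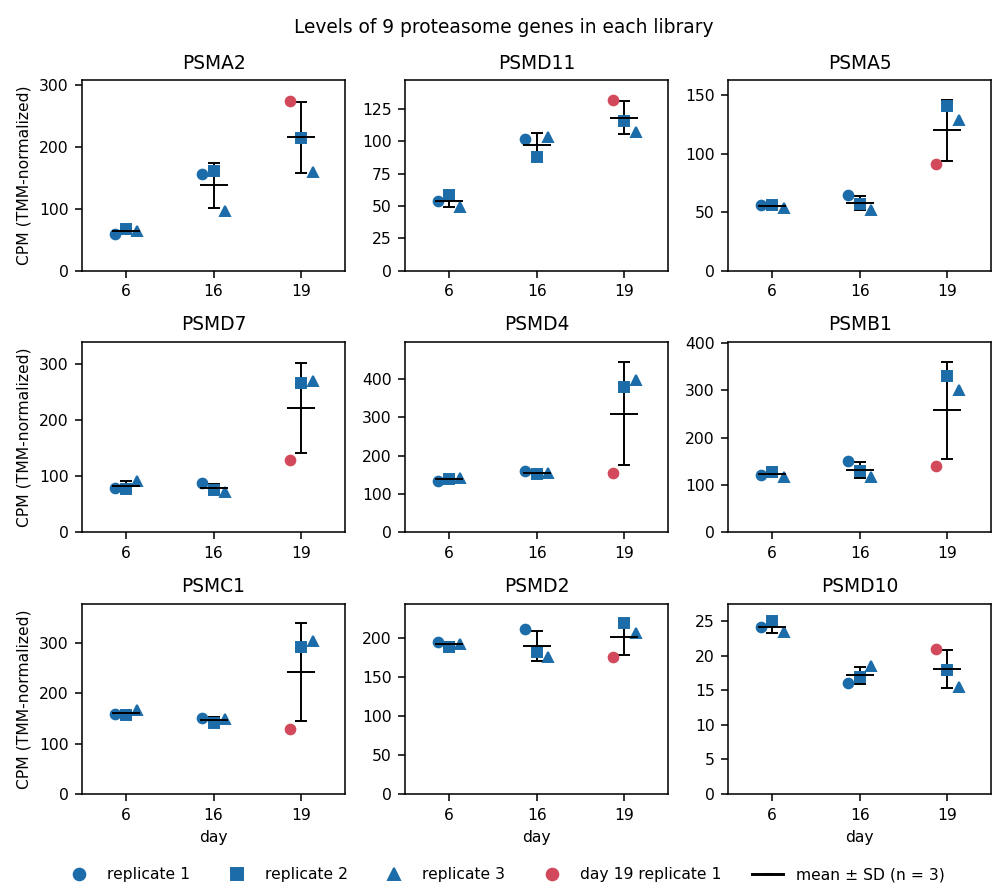
Level of 9 proteasome genes in each library on days 6, 16 and 19, in CPM, with the mean and SD of the 3 libraries of a day. The red point is day 19 replicate 1, which lies below the other day 19 libraries for PSMA5, PSMD7, PSMD4, PSMB1, PSMC1 and PSMD2 and above them for PSMA2, PSMD11 and PSMD10.

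The 11 other subunits of the base and lid had log2 fold changes of day 19 against day 6 between 0.06 and 1.42. Of these, 5 members were called higher, where 12.7% of all genes were. Without day 19 replicate 1 the values lay between 0.16 and 1.71, with 8 called higher, where 27.2% of all genes were. PSMD7, the lid partner of the deubiquitinating subunit, had 79.9, 76.5 and 92.4 CPM on day 6, 88.0, 76.1 and 72.1 CPM on day 16 and 129, 267 and 271 CPM on day 19. All day 19 libraries lay above all earlier ones, with replicate 1 between the earlier days and the other libraries of its day. The log2 fold change was 1.5 (SE 0.27) against day 16, with an edgeR adjusted p of 0.0461, and 1.42 (SE 0.27) against day 6, with an edgeR adjusted p of 0.00621. Without replicate 1 these values were 1.79 and 1.71 (SE 0.13 each). The p against day 16 ranged from 2.76e-05, without day 19 replicate 1, to 0.177, without day 16 replicate 3, and passed in no other fit that left out 1 library.

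PSMD14, the metalloprotease that removes the ubiquitin chain, had 21.3, 19.4 and 17.4 CPM on day 6, 21.0, 17.1 and 14.3 CPM on day 16 and 30.2, 33.4 and 31.4 CPM on day 19. The 3 day 19 libraries were close together, and replicate 1 did not stand apart. PSMD14 rose 1.64-fold against day 6 (edgeR adjusted p 0.028), and 1.69-fold without replicate 1, and its edgeR adjusted p against day 16 was 0.0612. PSMD4, a receptor for ubiquitin chains, had 135, 138 and 142 CPM on day 6, 159.8, 153 and 154 CPM on day 16 and 155, 378 and 396 CPM on day 19. Days 6 and 16 were tight, and replicate 1 of day 19 lay within the day 16 range. The 2.24-fold rise against day 6 (edgeR adjusted p 0.0243) was carried by replicates 2 and 3 and was 2.83-fold without replicate 1, and the call was lost without either of them or without any 1 of the day 6 libraries (adjusted p 0.0774 to 0.0809).

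PSMD11 had 53.5, 58.7 and 49.3 CPM on day 6, 102, 87.5 and 103 CPM on day 16 and 132, 115 and 107 CPM on day 19. Its larger step lay between days 6 and 16, and all 3 day 19 libraries lay above all 3 day 16 libraries. Against day 6 it rose 2.2-fold on day 19 (edgeR adjusted p 0.00137), and 2.08-fold without replicate 1, and the log2 fold change of day 19 against day 16 was 0.28 (SE 0.16, edgeR adjusted p 0.288). PSMD12, another lid scaffold subunit, had 25.7, 25.3 and 29.0 CPM on day 6, 33.1, 26.0 and 27.0 CPM on day 16 and 41.8, 32.0 and 29.9 CPM on day 19. Like PSMD11 it was highest in replicate 1 of day 19, and it was not called. PSMD6 had 40.1, 56.5 and 68.9 CPM on day 19, beside the lower day 16 values given above. Against day 16 its log2 fold change was 0.72 (SE 0.23), which did not pass in edgeR (adjusted p 0.112) and passed in DESeq2 (adjusted p 0.045). Without replicate 1 it was 0.92 (SE 0.16) and passed in edgeR. PSMD2, a base scaffold subunit named here after its values were seen, had 196, 189.6 and 192 CPM on day 6, 212, 182 and 176 CPM on day 16 and 176, 220.2 and 207 CPM on day 19. It was nearly level, with a log2 fold change of 0.06 (SE 0.16) on day 19 against day 6, and 0.16 (SE 0.12) without replicate 1.

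Of the 3 assembly chaperones, 0 were called by edgeR or DESeq2 with all 9 libraries, and 0 had an unadjusted p under 0.05 in day 19 against day 16. With limma voom on all 9 libraries, 1 was called lower in day 16 against day 6, 1 higher in day 19 against day 16, and 1 higher and 1 lower in day 19 against day 6. Among all genes voom called 3811, 7354 and 9433 in these 3 comparisons, in either direction. In the fit without day 19 replicate 1, edgeR called PSMD9 higher in day 19 against day 16 (log2 fold change 0.53, SE 0.15, adjusted p 0.0178), a gene named here after its values were seen. PSMD5 had 32.8, 36.0 and 32.6 CPM on day 6, 39.8, 37.1 and 25.7 CPM on day 16 and 37.3, 49.2 and 39.5 CPM on day 19, with overlap between days 16 and 19. PSMD10 had 21.0, 18.0 and 15.4 CPM on day 19, below all day 6 libraries, and was the 1 member with a negative estimate against day 6, at -0.41 (SE 0.18, edgeR adjusted p 0.126). Without day 19 replicate 1 that estimate was -0.52 (SE 0.15) and passed. PSMD5 and PSMD9 overlap another annotated gene, an unnamed locus and a transfer RNA.

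The 3 day 19 libraries differed from each other in these genes. The ratio of the highest to the lowest library of a day had a median over members of 1.09 on day 6, 1.30 on day 16 and 1.61 on day 19, and of 1.10 between day 19 replicates 2 and 3 alone. For 28 of 33 members replicate 1 lay below both other libraries, where 44.2% of all genes did so. For 4 members (PSMA2, PSMD10, PSMD11 and PSMD12) it lay above both, where 43.9% of all genes did so. The log2 ratio of replicate 1 to the mean of replicates 2 and 3 had a median of -0.56 over members and -0.01 over all genes.

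The median gap varied by subcomplex, but most ranges overlapped and the difference was not tested. The gap ran from -1.32 to 0.43 in the base and lid and from -1.20 to -0.09 in the ATPase ring. It ran from -0.86 to 0.55 in the alpha ring, -1.16 to -0.76 in the beta ring and -0.42 to 0.32 in the chaperones. Its median was -0.87 in the beta ring, -0.82 in the ATPase ring, -0.50 in the alpha ring, -0.36 in the base and lid and -0.25 in the chaperones. The widest gaps were those of PSMD4 (-1.32), PSMC1 (-1.20) and PSMB1 (-1.16). At the other end were PSMA2 (0.55), PSMD12 (0.43) and PSMD10 (0.32). Relative to day 6, replicates 1, 2 and 3 stood at a median of 1.49, 2.17 and 2.05 in the alpha ring and of 1.15, 2.21 and 2.16 in the beta ring. In the ATPase ring these values were 1.05, 1.64 and 1.65.

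Against day 16, replicates 2 and 3 together lay above all 3 libraries for 28 of 33 members, where 32.1% of all genes did so. Replicate 1 lay above all 3 day 16 libraries for 17 members, where 33.1% of all genes did so, within their range for 15 and below it for 1. The 17 included 6 of the 7 alpha subunits. Ribosomal protein genes were lowest in the same library, at the 2.42% given above, and were highest in replicates 2 and 3. The part of RNA composition in the day 19 differences was not tested.

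**Figure D4:**
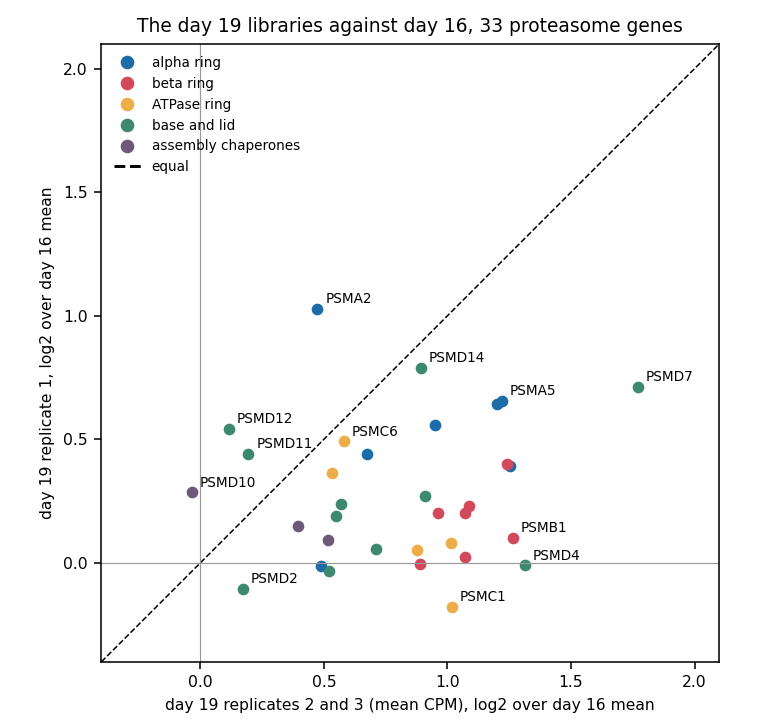
Each point is 1 of 33 proteasome genes. The horizontal axis is the log2 ratio of the mean of day 19 replicates 2 and 3 to the day 16 mean, the vertical axis the same for day 19 replicate 1, and the dashed line marks equality. Most points lie under the line, with PSMD4, PSMC1 and PSMB1 farthest below, and PSMA2, PSMD10, PSMD11 and PSMD12 lie above it.

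Cell type markers moved between days as well. The 6 stromal markers summed to between 27208 and 29898 CPM on day 6, 15760 and 20160 CPM on day 16 and 16475 and 25441 CPM on day 19. Epithelial markers summed to 461 to 474 CPM on day 6, 931 to 1036 CPM on day 16 and 624, 1031 and 667 CPM in the day 19 libraries. The 4 of 5 macrophage markers in the table summed to 166 to 299 CPM on day 6, 249 to 327 CPM on day 16 and 426, 603 and 511 CPM on day 19. Macrophage, epithelial, smooth muscle and lymphocyte sums were lowest of day 19 in replicate 1. The epithelial sum was so by little, at 624 CPM against 667 CPM in replicate 3. In replicate 1 the endothelial sum was the highest of day 19, at 696 CPM, and the stromal sum, at 23026 CPM, lay between the others. The 4 endothelial markers summed to 770 to 956 CPM on day 6, 995 to 1279 CPM on day 16 and 604 to 696 CPM on day 19, where every library lay below all earlier ones. The 6 smooth muscle markers summed to 7907 to 29524 CPM on day 6, 18510 to 19431 CPM on day 16 and 22602 to 40843 CPM on day 19, above all day 16 libraries. The 5 T and NK lymphocyte markers summed to between 54.3 and 99.6 CPM, and the days overlapped. Their part in the proteasome values was not tested.

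The partners of the proteasome were described with a list of 41 tested genes that load, assemble, activate or feed it. In day 16 against day 6, edgeR called 6 of them higher and 1 lower, where 5.12% and 3.74% of all genes were. In day 19 against day 6 it called 13 higher and 0 lower, where 12.7% and 10.2% of all genes were, and in day 19 against day 16 it called 0 in either direction. Leaving out day 19 replicate 1, it called 24 higher and 10 lower in day 19 against day 6, where 27.2% and 27% of all genes were. In that fit it called 18 higher and 9 lower in day 19 against day 16, where 21.6% and 23.1% of all genes were. With all 9 libraries, 15 were higher and 2 lower at an unadjusted p under 0.05 in day 19 against day 16, where DESeq2 called 8 higher and 1 lower. In day 19 against day 6, 2 were lower at an unadjusted p under 0.05, as many as DESeq2 called lower. The median log2 fold change of the 41 was 0.02 for day 16 against day 6 and 0.51 for day 19 against day 6, and 0.59 for the second without day 19 replicate 1.

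Of the 5 genes for activators and an inhibitor of the core, 1 rose on day 16 and 3 rose on day 19, each relative to day 6. Among all genes 5.12% and 12.7% were called higher. PSMF1, a regulator that binds the core and inhibits it in the test tube, had 110.0, 103 and 101 CPM on day 6, 359, 501 and 311 CPM on day 16 and 521, 539 and 484 CPM on day 19. Every later library lay well above every day 6 library, and replicate 1 of day 19 did not stand apart. Its log2 fold change was 1.90 (SE 0.21) for day 16 against day 6, with an edgeR adjusted p of 0.000723, and 2.30 (SE 0.22) for day 19 against day 6, which stayed at 2.30 without replicate 1. PSME1 and PSME2, which form the interferon-inducible activator ring, rose 3.30-fold and 4.15-fold in day 19 against day 6 (edgeR adjusted p 0.00118 and 0.000798), and 3.68-fold and 4.93-fold without replicate 1. On day 16 they had estimates of 0.73 and 0.80 on the log2 scale and edgeR adjusted p of 0.0846 and 0.0835, and both passed without day 19 replicate 1. PSME2 had 76.3, 74.4 and 82.9 CPM on day 6, 136, 158 and 114 CPM on day 16 and 208, 389 and 373 CPM on day 19.

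Of the 6 genes for core assembly, 3 rose in day 19 against day 6, where 12.7% of all genes were called higher. PSMG1 and PSMG2, which form a dimer that guides alpha ring assembly, rose 1.81-fold and 2.00-fold (edgeR adjusted p 0.0212 and 0.0213), and 2.04-fold and 2.29-fold without day 19 replicate 1. PSMG2 had 15.7, 24.6 and 18.8 CPM on day 6, 21.3, 15.1 and 16.2 CPM on day 16 and 29.0, 46.3 and 42.9 CPM on day 19, above all earlier libraries. SHFM1, a small lid subunit with a name outside the PSM series, had 64.8, 69.2 and 82.8 CPM on day 6, 81.1, 79.2 and 68.0 CPM on day 16 and 82.7, 363 and 185 CPM on day 19. It rose 2.91-fold against day 6 (edgeR adjusted p 0.0294), and 3.83-fold without replicate 1, and its replicate 1 on day 19 lay at the upper edge of day 6.

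Of the shuttle and unfoldase genes, SQSTM1, a receptor that carries ubiquitin-tagged cargo to autophagy, had 545, 508 and 562 CPM in day 16 libraries, against 350.4, 274 and 338 CPM in day 6 libraries (1.68-fold, edgeR adjusted p 0.0477). NPLOC4, a cofactor of the unfoldase VCP, fell by 0.63 on the log2 scale in day 16 against day 6 (SE 0.15, edgeR adjusted p 0.0344). It had 90.1, 76.4 and 89.4 CPM in day 16 libraries, against 148, 124 and 123 CPM in day 6 libraries.

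Of the 4 tested genes for transcription of proteasome genes, 0 were called in day 19 against day 16 by edgeR or DESeq2, and 0 had an unadjusted p under 0.05. When day 19 replicate 1 was left out, edgeR called 2 lower in that comparison, NFE2L1 and DDI2, where 23.1% of all genes were called lower. With all 9 libraries edgeR called only NGLY1 of the 4, higher in day 16 against day 6 (1.45-fold, adjusted p 0.0498). NGLY1 was also called higher in day 19 against day 6 without day 19 replicate 1 (edgeR adjusted p 0.0461). These 3 genes are named here after their values were seen. NFE2L1 encodes the transcription factor that raises proteasome genes when the protease is inhibited, and DDI2 the protease that cuts it into its active form. NFE2L1 had 292, 274 and 284 CPM on day 6, 279, 282 and 237 CPM on day 16 and 301, 177 and 161 CPM on day 19. DDI2 had 14.8, 19.2 and 14.6 CPM on day 6, 16.3, 18.0 and 16.3 CPM on day 16 and 17.1, 1.2 and 2.64 CPM on day 19. In both, replicate 1 of day 19 lay near the earlier days and replicates 2 and 3 lay below every other library.

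**Figure D5:**
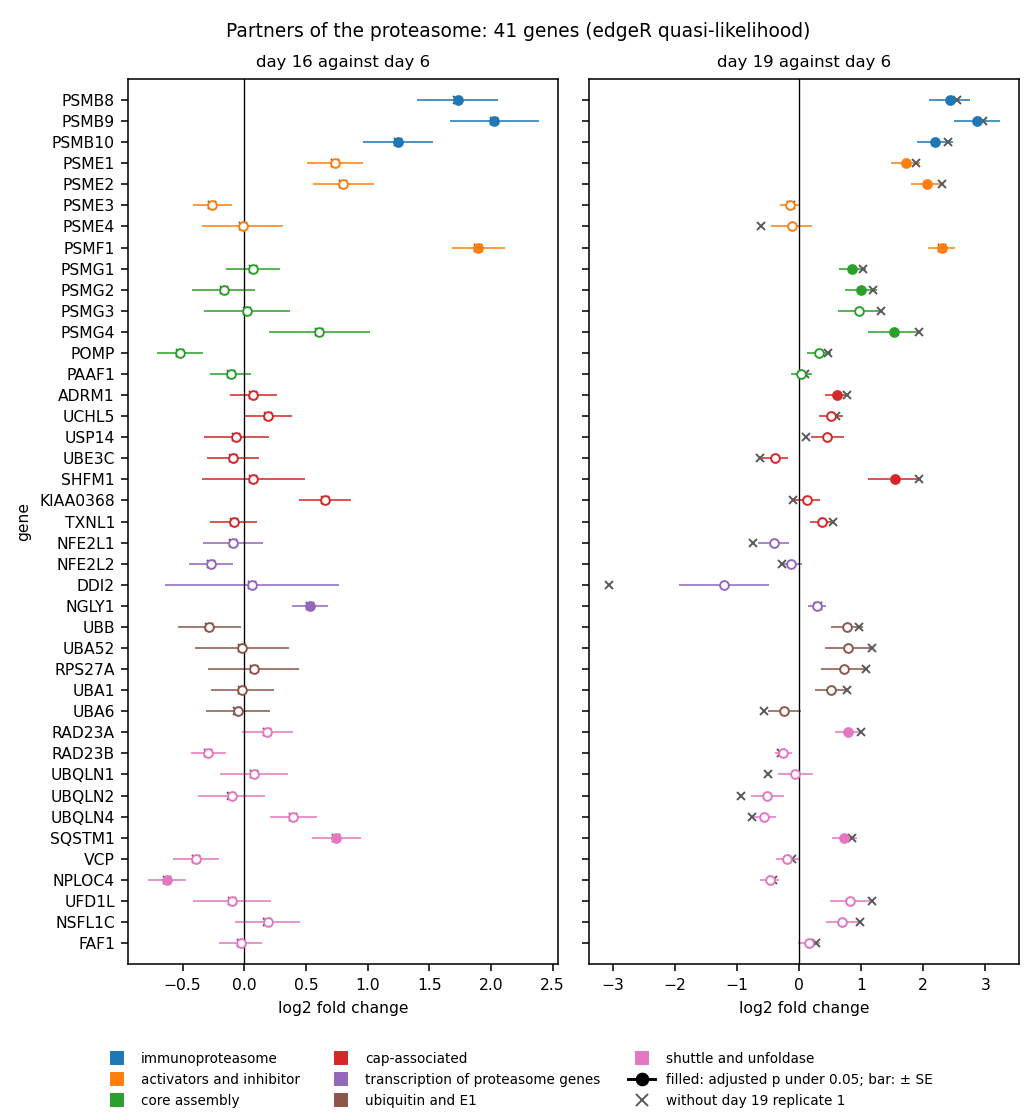
Log2 fold change of 41 genes that assemble, activate, regulate or feed the proteasome, for day 16 against day 6 and day 19 against day 6. Points are edgeR estimates from all 9 libraries with bars of 1 SE, filled where the adjusted p was under 0.05, and crosses are estimates without day 19 replicate 1. Filled points number 7 on the left, with NPLOC4 the only one below 0, and 13 on the right, all above 0.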

How the data were processed

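Poly(A) RNA of 9 uterine samples, 3 each from days 6, 16 and 19, was sequenced on an Ion Proton, per the labels. The deposited table holds unnormalized counts of reads for each gene. How the authors aligned and counted, and on which build and strand setting, is not given in the sources used here, so reads of overlapping or antisense genes cannot be told apart. Of the 35 members, 5 overlap another gene in assembly ARS1.2, which was used for names and neighbours only. Every member's gene identifier carried the same symbol there.

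Libraries of a day differed by more than sampling noise (chi-square over its degrees of freedom at least 9.86), and all 9 were counted as separate. Such a spread cannot tell different animals from separate preparations of the same animal. From the counts, 16098 genes passed filterByExpr. The tests used edgeR 4.0.16 (R 4.3.3), with TMM scaling and a robust quasi-likelihood fit to all 9 libraries with the day as only term. The common biological coefficient of variation was 0.318. Benjamini-Hochberg adjustment ran over all genes tested, and the threshold was 0.05. SE is the absolute log2 fold change divided by the square root of F. The script was checked on simulated counts. DESeq2 1.42.0, limma 3.58.1 voom, other scalings and filters, a replicate block and leaving out each library were alternatives.

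The members and lists were chosen with earlier results of these data known. Named with every library's value are up to 10 members with the smallest adjusted p among the 3 days, the highest and lowest of each subcomplex in day 16 against day 6, PSMB5, PSMB6, PSMB7, PSMA8 and PSMB11, and the 3 at each end of the day 19 replicate 1 ratio, taken after adding 0.5 CPM. Of the pathway lists, up to 12 called genes are named. One gene of these lists is not reported here.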

Additional observations from a re-analysis of the deposited data

How the results depend on the processing

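No member called in a comparison with all libraries or without day 19 replicate 1 changed direction in it. PSMD10, not called in day 19 against day 16, had a log2 fold change of 0.08 with all libraries and -0.03 without day 19 replicate 1, and 2 members were negative in that comparison with scaling by totals alone. The number of members called for day 16 against day 6 was 2, and 4 with limma voom and sample quality weights (2 higher, 2 lower). For day 19 against day 16 it was 2, and 16 with DESeq2, 27 with voom, 0 with only the 2 days' libraries and 27 with those but without day 19 replicate 1. For day 19 against day 6 it was 15, and 29 with voom, 8 with only the 2 days' libraries and 30 with those but without day 19 replicate 1. Among the 3 days it was 15, and 30 with voom and 8 without scaling beyond library totals. The fits to 2 days without day 19 replicate 1 were chosen after seeing the data. Leaving out 1 library in turn gave 0 to 3, 0 to 27, 6 to 28 and 5 to 30 calls in these 4 results, each highest without day 19 replicate 1. These fits have fewer samples, and the cause of the changes was not tested. A replicate block in the model gave 2, 0, 11 and 8 calls. Calls among all genes moved with the settings too. For day 16 against day 6 they were 1427, and 3811 with voom. For day 19 against day 16 they were 193, and 1756 with DESeq2, 7354 with voom and 0 with only the 2 days' libraries. For day 19 against day 6 they were 3684, and 9433 with voom and 2357 with only the 2 days' libraries. The 2-day fits without day 19 replicate 1 called 6922 and 8827 genes in these 2 day 19 comparisons. Leaving out that library from the full fit gave 3345, 7331, 8891 and 9703 calls among all genes in the 4 results. No pairing by replicate number was seen: same-numbered deviations correlated between -0.16 and 0.15, and 0 libraries correlated best with their own number. With 3 libraries a day this check cannot exclude a pairing or a shared batch.

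Library totals alone as scaling moved the median of all genes to -0.15 for day 19 against day 16 and -0.18 for day 19 against day 6, where the members had 0.50 and 0.43. The members' median moved by less than the within-day SD of their median log2 CPM, 0.269, under all 59 alternatives. That standard is a loose one, as the SD takes in day 19, whose libraries differed most. Without day 19 replicate 1 the median for day 19 against day 16 went from 0.65 to 0.90, which it passes. Of single members' values under the alternatives, 935 stayed on their side of the threshold, 89 lost the call and 133 gained it. Without ribosomal protein and mitochondrial rows, the members' share of counts was 0.330%, 0.313% and 0.318% on day 6, 0.339%, 0.305% and 0.301% on day 16 and 0.340%, 0.533% and 0.494% on day 19, where replicate 1 was level with the highest day 16 library. CPM per length of coding sequence was not run, for want of lengths, so levels are not compared between genes. With 3 libraries a day and a coefficient of variation of 0.318, small differences were not detectable.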

Other observations

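PSMC3, the ATPase outside the naming rule, stands in the table as a locus identifier that carries this symbol in the reference gene table. It had 857, 895 and 919 counts on day 6, 846, 657 and 827 on day 16 and 729, 1070 and 960 on day 19. A second locus whose best match in the deposited annotation is PSMC3 had 547, 501 and 522 counts on day 6, 437, 379 and 491 on day 16 and 445, 1010 and 1031 on day 19. In both, the counts of day 19 replicates 2 and 3 lay above all other libraries and those of replicate 1 within the day 16 range. These counts are not scaled to library totals. Whether reads were divided between these rows cannot be told from the table, and neither entered the counts of members.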
